A study of Homo sapiens with 4 samples.

Results

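The genes described here are 39 interferon-stimulated genes, read in MCF10A, an immortal but untransformed line of human breast epithelium, in cultures that expressed forms of the transcriptional coactivator YAP. Of the 39 genes, 38 had at least 1 probe set annotated to their symbol alone, among 19775 such genes on the array, and each is represented by its probe set with the highest mean intensity over the 4 arrays. STAT2 has no such probe set and is not analysed here. The groups were cells infected with a retrovirus made from pQCXIH carrying the YAP forms named YAP-WT (wild type), YAP-S94A and YAP-W1W2, and cells infected with virus from the pQCXIH vector alone (vector), with 1 array per group. S94A lies in the part of YAP that contacts TEAD DNA-binding proteins. W1W2 alters the pair of WW domains through which YAP binds PPxY-bearing partners. All 4 cultures carried the endogenous YAP gene and grew in DMEM/F12 with insulin, cholera toxin, EGF, hydrocortisone, P/S and horse serum. The labels do not say whether each culture was a pool or 1 clone, and no interferon treatment is named for any of them. No group was replicated, so no test or error of a difference could be given, and each difference is between 2 arrays. A gene was counted as higher or lower when 2 arrays differed by at least 2-fold.

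Interferons are secreted proteins that cells release on sensing viral nucleic acid. Type I and type III interferons signal through JAK kinases to a complex that holds STAT2 and IRF9 and binds the interferon-stimulated response element (ISRE) in the promoters of many antiviral genes. Interferon gamma acts largely through a different element, the gamma-activated site (GAS). The products of these genes block viral entry, translation and release, tag proteins with the ubiquitin-like ISG15, or prepare peptides for MHC class I. Epithelial cells keep a low level of many of these transcripts without added interferon.

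Promoters are shown because most of these genes carry the element through which interferon acts, including genes that differed between the YAP forms and genes that did not. Each window runs from 250 bases before to 50 bases after the annotated start, 5′ to 3′ on the gene's strand, from RefSeq on GRCh38.p14. Capitals mark matches to the ISRE core, GAAA followed by any 2 bases and GAAA again, on either strand. IFI44 and IFI27 were the 2 lowest measured members with a promoter in the table when YAP-W1W2 was set against vector, TAP1, OAS3 and PSMB9 the 3 highest, and ISG15 and IFIT1 are standard examples of the class. BST2 and SAMD9 were added after their values were seen, since they shared the pattern of IFI27.
IFI44: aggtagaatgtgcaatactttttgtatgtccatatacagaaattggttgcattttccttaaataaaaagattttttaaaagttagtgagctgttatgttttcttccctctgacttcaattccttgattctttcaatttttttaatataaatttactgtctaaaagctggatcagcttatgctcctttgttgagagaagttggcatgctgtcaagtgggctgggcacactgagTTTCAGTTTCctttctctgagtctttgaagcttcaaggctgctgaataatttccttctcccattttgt
IFI27: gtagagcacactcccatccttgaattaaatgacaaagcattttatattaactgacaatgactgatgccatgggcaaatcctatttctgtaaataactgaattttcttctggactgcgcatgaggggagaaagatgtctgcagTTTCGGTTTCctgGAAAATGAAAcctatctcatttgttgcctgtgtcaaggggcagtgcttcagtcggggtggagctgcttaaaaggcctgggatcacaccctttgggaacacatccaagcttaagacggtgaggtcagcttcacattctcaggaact
BST2: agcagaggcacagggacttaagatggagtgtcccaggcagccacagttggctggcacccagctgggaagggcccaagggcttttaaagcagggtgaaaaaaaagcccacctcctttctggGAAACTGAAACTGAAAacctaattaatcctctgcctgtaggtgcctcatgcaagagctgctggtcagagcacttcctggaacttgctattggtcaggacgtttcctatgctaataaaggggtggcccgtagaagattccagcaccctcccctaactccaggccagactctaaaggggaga
SAMD9: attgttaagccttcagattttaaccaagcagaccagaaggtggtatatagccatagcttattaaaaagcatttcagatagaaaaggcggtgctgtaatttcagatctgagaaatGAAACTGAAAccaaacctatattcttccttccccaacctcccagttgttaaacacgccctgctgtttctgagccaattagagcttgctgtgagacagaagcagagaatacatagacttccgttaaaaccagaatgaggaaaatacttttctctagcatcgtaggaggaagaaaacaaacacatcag
TAP1: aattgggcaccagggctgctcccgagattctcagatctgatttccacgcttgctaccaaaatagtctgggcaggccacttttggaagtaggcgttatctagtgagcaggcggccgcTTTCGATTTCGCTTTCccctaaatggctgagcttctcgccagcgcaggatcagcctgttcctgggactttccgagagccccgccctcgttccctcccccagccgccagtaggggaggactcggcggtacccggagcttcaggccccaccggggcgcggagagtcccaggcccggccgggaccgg
OAS3: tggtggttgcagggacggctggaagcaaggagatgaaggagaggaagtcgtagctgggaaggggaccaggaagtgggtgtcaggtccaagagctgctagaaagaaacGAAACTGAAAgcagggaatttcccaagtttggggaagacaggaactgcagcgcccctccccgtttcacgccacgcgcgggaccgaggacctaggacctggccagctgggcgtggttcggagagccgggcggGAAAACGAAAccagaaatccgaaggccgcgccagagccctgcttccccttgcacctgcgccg
PSMB9: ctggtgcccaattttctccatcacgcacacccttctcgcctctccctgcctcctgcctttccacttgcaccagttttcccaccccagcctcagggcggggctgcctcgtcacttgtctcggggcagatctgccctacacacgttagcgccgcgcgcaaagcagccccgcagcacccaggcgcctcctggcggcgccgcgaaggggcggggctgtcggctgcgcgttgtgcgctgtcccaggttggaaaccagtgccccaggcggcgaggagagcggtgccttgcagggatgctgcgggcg
ISG15: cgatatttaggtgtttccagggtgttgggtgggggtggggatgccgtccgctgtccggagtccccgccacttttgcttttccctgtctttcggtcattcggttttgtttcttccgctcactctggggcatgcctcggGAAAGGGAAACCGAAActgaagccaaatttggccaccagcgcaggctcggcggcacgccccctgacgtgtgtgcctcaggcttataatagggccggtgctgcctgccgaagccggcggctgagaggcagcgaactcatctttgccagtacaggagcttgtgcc
IFIT1: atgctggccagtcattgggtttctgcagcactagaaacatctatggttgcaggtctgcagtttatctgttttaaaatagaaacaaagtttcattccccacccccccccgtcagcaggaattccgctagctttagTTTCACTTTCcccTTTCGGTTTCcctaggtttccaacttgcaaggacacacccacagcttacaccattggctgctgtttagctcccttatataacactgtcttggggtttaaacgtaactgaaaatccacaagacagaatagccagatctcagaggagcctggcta
The IFI44 window lies at chr1:78649539-78649838 on the plus strand, IFI27 at chr14:94110486-94110785 on the plus strand, BST2 at chr19:17405581-17405880 on the minus strand and SAMD9 at chr7:93117930-93118229 on the minus strand. TAP1 lies at chr6:32853655-32853954 on the minus strand and PSMB9 at chr6:32853942-32854241 on the plus strand, so these genes run away from each other and their windows overlap by 13 bases. OAS3 lies at chr12:112938224-112938523, ISG15 at chr1:1013247-1013546 and IFIT1 at chr10:89392373-89392672, each on the plus strand. In BST2, ISG15 and TAP1 the 2 ISRE matches overlap each other. PSMB9 has no match in its window, which says only that these letters are not in these 300 bases.

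Promoter windows were found for 33 of the 39 genes, and the first listed window of each gene was searched. IFIT2, OAS2, OASL, MX2, USP18 and IRF7 had no entry. The ISRE core stood in 20 of the 33 (60.6%), against 996 of 27305 genes in the whole table (3.65%), and 13 members held more than 1 match. The GAS letters TTCNNNGAA stood in 8 members (24.2%), against 7.88% of all genes, and in 4 of these, BST2, IFITM1, IFI27 and EPSTI1, the GAS match overlapped an ISRE match. The TEAD letters GGAATG, searched on both strands since S94A concerns TEAD binding, stood in 5 members (15.2%), against 14.0% of all genes, and overlapped neither of the other motifs. These 5 were STAT2, IRF9, IFIT1, IFIT3 and IFI35. Among measured members, the 18 with an ISRE match had a median log2 difference from vector of −0.22 in YAP-WT cells, −0.16 in YAP-S94A cells and −0.33 in YAP-W1W2 cells, and the 11 without a match had −0.14, 0.05 and −0.13 for the same arrays.

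**Figure D1:**
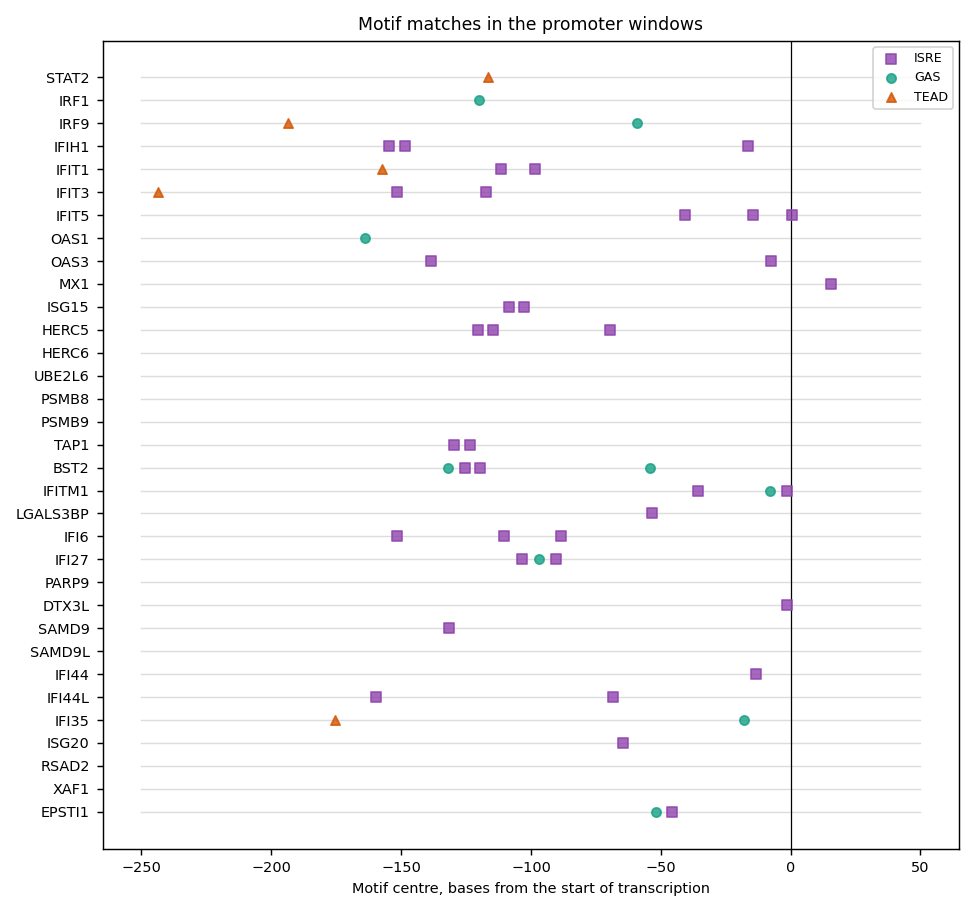
Positions of matches to the ISRE, GAS and TEAD letters in the promoter windows of 33 interferon-stimulated genes, as distance in bases of the motif centre from the annotated start (0, vertical line); each row is a gene and each symbol a match. ISRE matches (purple squares) occur in 20 rows, GAS matches (green circles) in 8 and TEAD matches (orange triangles) in 5.

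The arrays were used on the scale on which they were deposited, as linear intensities. Their medians over all probe sets other than controls ran from 112.3 to 116.2. Intensities below 72.9, the 40th percentile of all values, were set to that floor, and a gene was called measured if its mean intensity over the arrays was at least 113.6. By this rule 35 of the 38 genes were measured. The median measured gene of the whole array stood above vector by 0.14 (log2) in YAP-WT cells, 0.14 in YAP-S94A cells and 0.10 in YAP-W1W2 cells. CCN2, a well-known YAP and TEAD target, read 5523 in YAP-WT cells, 636.5 in YAP-S94A cells and 8075 in YAP-W1W2 cells, against 322.8 in vector. The 3 probe sets of YAP1 differed from vector by at most 0.60 (log2), and whether they lie within the constructs is not known. Of 8 basal epithelial markers 4 had a probe set, and all 4 were bright, with KRT5 and KRT14 between 30482 and 39724. The others varied more, CDH1 from 5239 in YAP-WT to 11039 in YAP-S94A, and ITGB4 from 4627 in YAP-W1W2 to 9396 in YAP-S94A. Bacterial BioB controls stood below vector by log2 differences of −0.47 in YAP-WT cells, −0.83 in YAP-S94A cells and −1.28 in YAP-W1W2 cells, and whether this has a part in the differences below was not tested.

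The interferon-stimulated genes were of middling to low signal. The median over the 35 measured members was 330.6 in YAP-WT cells, 397.9 in YAP-S94A cells and 378.8 in YAP-W1W2 cells, against 446.7 in vector. The mean intensity of the median member was 431.8, against 725.8 for all measured genes. No member was at or below the floor on all 4 arrays, but 3 were too dim to count. MX1, a GTPase that blocks viral nucleocapsids, read 82.1, 87.8 and 96.8 for YAP-WT, YAP-S94A and YAP-W1W2, against 84.0 in vector, all just above the floor. HERC5, the main ligase for ISG15, read 99.8, 86.7 and 83.3 for YAP-WT, YAP-S94A and YAP-W1W2, against 7.0 in vector. Its vector value lay under the floor and its other values close to it. XAF1, which counters the apoptosis inhibitor XIAP, read 93.5, 149.6 and 66.6 for YAP-WT, YAP-S94A and YAP-W1W2, against 70.3 in vector. For XAF1 the YAP-W1W2 and vector values lay under the floor. OAS1 in YAP-WT was the only value of a measured member at or below the floor.

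**Figure D2:**
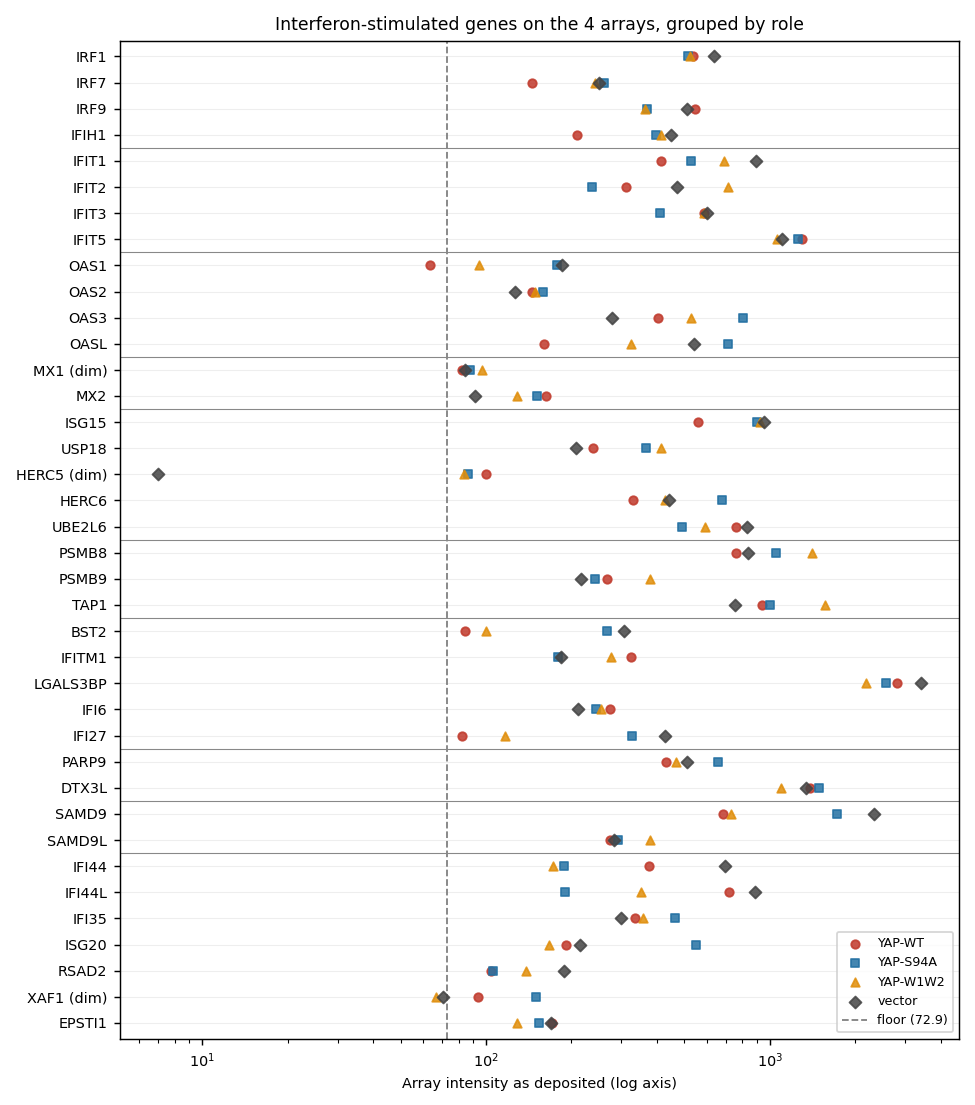
Array intensity on a log axis of each of the 38 interferon-stimulated genes (rows, grouped by role) on the YAP-WT, YAP-S94A, YAP-W1W2 and vector arrays, 1 array each, with the floor of 72.9 as a dashed line. The genes marked dim are MX1, HERC5 and XAF1, and LGALS3BP is the brightest gene on every array.

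The members did not shift as a block. In RNA of a whole culture, fewer cells that express a gene and less RNA per cell cannot be told apart. In YAP-WT, 0 of 35 were at least 2-fold higher than in vector and 7 (20.0%) at least 2-fold lower, while over all 12759 measured genes 9.11% were higher and 4.95% lower. Their median log2 difference was −0.16, or −0.30 relative to the median of all genes. In YAP-S94A, 2 were higher and 2 lower than in vector, with 10.3% of all genes higher and 6.53% lower, and the median was −0.04, or −0.18 relative to all genes. In YAP-W1W2, 1 was higher and 5 lower than in vector, with 11.4% of all genes higher and 8.4% lower, and the median was −0.12, or −0.22 relative to all genes. Since the 3 comparisons share the vector array, an aberrant vector value would appear in each. In all, 12 of the 35 genes (34.3%) passed 2-fold against vector in at least 1 YAP form, near the 30.2% of all measured genes, and 23 passed in none. None of the 35 passed in every form (0, against 5.77% of all measured genes). The vector array gave the highest value for 14 of the 35 genes and the lowest for 8, and YAP-WT gave the highest for 6 and the lowest for 14. The median gene among the members varied by 1.81-fold over the 4 arrays, close to the 1.73-fold of all measured genes.

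**Figure D3:**
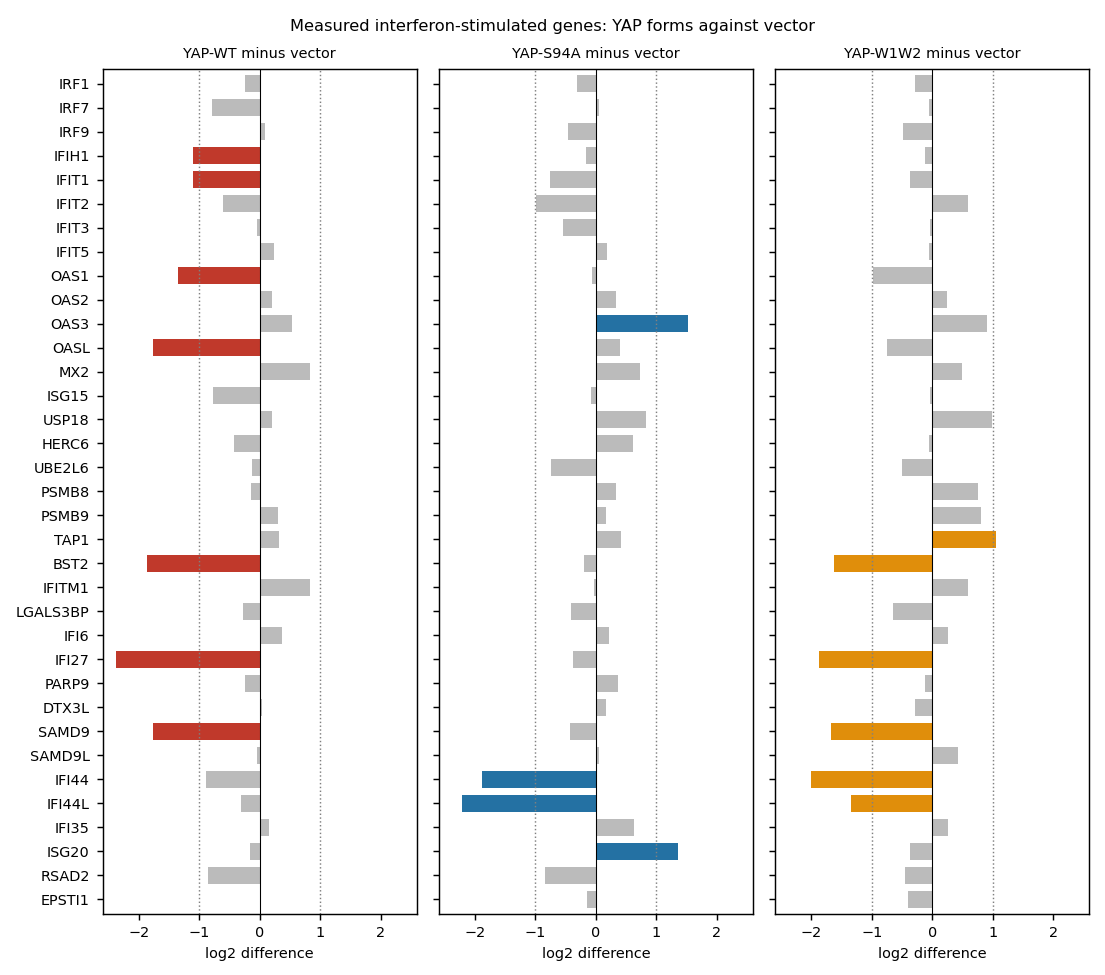
Log2 difference from vector of the 35 measured interferon-stimulated genes (rows) for YAP-WT, YAP-S94A and YAP-W1W2 (panels), each bar a difference between 2 arrays; coloured bars pass 2-fold (dotted lines) and grey bars do not. BST2, IFI27 and SAMD9 are coloured in the YAP-WT and YAP-W1W2 panels, and IFI44 and IFI44L in the YAP-S94A and YAP-W1W2 panels.

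IFI27, BST2 and SAMD9 were lower in YAP-WT and YAP-W1W2 but stayed within 2-fold of vector in YAP-S94A. IFI27, a small mitochondrial and nuclear-envelope protein and among the most inducible of interferon genes, read 82.3 in YAP-WT cells, 327.7 in YAP-S94A cells and 116.7 in YAP-W1W2 cells, against 425.9 in vector. It was 5.18-fold lower in YAP-WT cells, 1.30-fold lower in YAP-S94A cells and 3.65-fold lower in YAP-W1W2 cells. BST2, or tetherin, which holds budding virus at the cell surface, read 84.6, 266.1 and 99.7 in the same order of YAP forms, against 306.5 in vector. It was 3.62-fold lower in YAP-WT cells, 1.15-fold in YAP-S94A cells and 3.07-fold in YAP-W1W2 cells. SAMD9, an endosomal antiviral and growth-restraining protein, was the brightest of these at 684.6 in YAP-WT cells, 1720 in YAP-S94A cells and 731.1 in YAP-W1W2 cells, against 2326 in vector. It was 3.40-fold lower in YAP-WT cells, 1.35-fold in YAP-S94A cells and 3.18-fold in YAP-W1W2 cells. For each of these genes the YAP-WT and YAP-W1W2 arrays were the low pair, and the YAP-S94A and vector arrays the high pair. IFI27 and BST2 rested on 1 probe set each. Their YAP-WT values lay just above the floor, and their YAP-W1W2 values, 116.7 and 99.7, were low as well. The second probe set of SAMD9 gave log2 differences from vector of −1.87 in YAP-WT cells, −0.53 in YAP-S94A cells and −1.19 in YAP-W1W2 cells, the same order as the first.

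IFI44 and IFI44L, cytoplasmic antiviral proteins encoded side by side on chromosome 1, were lower in YAP-S94A and YAP-W1W2. IFI44L read 718.6 in YAP-WT cells, 190.4 in YAP-S94A cells and 350.3 in YAP-W1W2 cells, against 888.3 in vector, and was 4.67-fold lower in YAP-S94A and 2.54-fold lower in YAP-W1W2. IFI44 read 375.9 in YAP-WT cells, 188.3 in YAP-S94A cells and 172.3 in YAP-W1W2 cells, against 691.9 in vector, and was 3.67-fold lower in YAP-S94A and 4.02-fold lower in YAP-W1W2. In YAP-WT the differences were 1.24-fold lower for IFI44L and 1.84-fold lower for IFI44. Here the mutants were the low pair, and vector was the highest array for both genes. The other probe set of IFI44 was dim, at 88.9 in vector, and differed from vector by only −0.26 (log2) in YAP-S94A and −0.16 in YAP-W1W2.

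By their brightest probe sets IRF1 and IRF9 stayed within 1.5-fold of vector, while IRF7 and IFIH1 were lowest in YAP-WT. IRF1, an early interferon-induced transcription factor, read 536.6, 515.2 and 524.7 for YAP-WT, YAP-S94A and YAP-W1W2, against 637.8 in vector. IRF9, the DNA-binding part of the interferon-activated complex, read 543.3, 369.9 and 362.2, against 508.6 in vector. IRF7, which amplifies interferon production, read 145.3 in YAP-WT cells, 259.5 in YAP-S94A cells and 242.3 in YAP-W1W2 cells, against 250.9 in vector, so YAP-WT alone was low. The RNA sensor IFIH1, or MDA5, had the same shape with 209.0 in YAP-WT cells, 397.9 in YAP-S94A cells and 411.7 in YAP-W1W2 cells, against 446.7 in vector. IFIH1 was 2.14-fold lower in YAP-WT, though by only −0.51 (log2) with the mean over its probe sets, the others of which were dim. A second, dimmer probe set of IRF1 lay under the floor in YAP-WT and YAP-S94A (23.7 and 47.2) and read 185.6 in YAP-W1W2, against 293.8 in vector, which the brighter probe set does not show.

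The IFIT genes encode proteins that bind viral RNA lacking host cap marks, and 4 of them, close together on chromosome 10, belong here. IFIT1 read 414.0 in YAP-WT cells, 528.4 in YAP-S94A cells and 691.1 in YAP-W1W2 cells, against 892.9 in vector. It was 2.16-fold lower in YAP-WT and under 2-fold lower in both mutants. IFIT2 read 310.3 in YAP-WT cells, 236.6 in YAP-S94A cells and 709.4 in YAP-W1W2 cells, against 470.9 in vector, and so was below vector in YAP-WT and YAP-S94A but above it in YAP-W1W2. Its second probe set ran the same way, with log2 differences of −0.13 in YAP-WT cells, −1.06 in YAP-S94A cells and 0.71 in YAP-W1W2 cells. IFIT3 read 585.1, 410.4 and 583.8 for YAP-WT, YAP-S94A and YAP-W1W2, against 601.1 in vector, with YAP-S94A alone low. IFIT5 was the brightest of the family, at 1060 to 1300 over the 4 arrays. The other probe set of IFIT5 read 302.2 in YAP-WT, against 681.7 in vector, a log2 difference of −1.17 where the brighter one gave 0.23.

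The OAS enzymes make the short oligoadenylates that switch on RNase L, and their 4 transcripts went different ways. OASL, which lacks that activity in humans and aids RNA sensing, read 159.4 in YAP-WT cells, 712.5 in YAP-S94A cells and 324.0 in YAP-W1W2 cells, against 541.7 in vector. It was 3.40-fold lower in YAP-WT, while its dimmer probe set gave a log2 difference of −0.56 there and 0.63 in YAP-W1W2, opposite to the −0.74 of the brighter one. OAS1 read 63.3 in YAP-WT cells, 177.4 in YAP-S94A cells and 94.3 in YAP-W1W2 cells, against 185.7 in vector, and was at least 2.55-fold lower in YAP-WT, whose value was under the floor. Its other probe set lay under the floor on every array. OAS3 went the other way, with 403.1 in YAP-WT cells, 802.1 in YAP-S94A cells and 525.6 in YAP-W1W2 cells, against 278.9 in vector, so that every YAP form was above vector and YAP-S94A was 2.88-fold higher. The second probe set of OAS3 was higher by 1.00 (log2) in YAP-S94A as well. OAS2 stayed between 126.2 and 159.3. OAS1, OAS3 and OAS2 lie in a row on chromosome 12, so the neighbours OAS1 and OAS3 differed from vector in opposite directions in YAP-WT and YAP-W1W2.

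Of the genes for ISG15 and its conjugation, ISG15 itself read 555.9 in YAP-WT cells, 902.3 in YAP-S94A cells and 921.0 in YAP-W1W2 cells, against 950.0 in vector, a 1.71-fold lower value in YAP-WT only. USP18, the protease that removes ISG15 and restrains the interferon receptor, read 238.8, 367.1 and 413.5 for YAP-WT, YAP-S94A and YAP-W1W2, against 207.3 in vector. At 1.99-fold higher in YAP-W1W2 it lay just under the threshold. UBE2L6, the conjugating enzyme, read 760.8, 492.0 and 588.7, against 828.1 in vector. HERC6, a HECT-domain ligase, read 330.6 in YAP-WT cells, 676.6 in YAP-S94A cells and 426.4 in YAP-W1W2 cells, against 442.7 in vector, with YAP-S94A the high array.

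The 3 antigen-processing members, TAP1, PSMB8 and PSMB9, were highest in YAP-W1W2. TAP1, a subunit of the transporter that carries peptides to MHC class I, read 939.6 in YAP-WT cells, 1004 in YAP-S94A cells and 1570 in YAP-W1W2 cells, against 751.4 in vector. It was 2.09-fold higher in YAP-W1W2, the only member past 2-fold upwards there. The immunoproteasome subunit PSMB8 read 760.3, 1049 and 1407 for YAP-WT, YAP-S94A and YAP-W1W2, against 837.2 in vector, or 1.68-fold higher in YAP-W1W2. PSMB9, another such subunit, read 267.1, 241.8 and 377.0, against 216.3 in vector, or 1.74-fold higher in YAP-W1W2. These genes are neighbours in the MHC region of chromosome 6. Outside the 39 genes, TAP2, the partner of TAP1 in the transporter, read 2487 in YAP-WT cells, 1657 in YAP-S94A cells and 5139 in YAP-W1W2 cells, against 1062 in vector. All 3 measured probe sets of TAP2 were higher in YAP-W1W2, by 1.28 to 2.27 (log2), while in YAP-WT they ranged from −1.19 to 1.23. In the same pathway the loading factor TAPBP read 1312 in YAP-W1W2, against 2314 in vector, by its brightest probe set. The other measured probe set of TAPBP was higher there, by 0.24 (log2). The immunoproteasome subunit PSMB10 read 462.3 in YAP-W1W2, against 689.8 in vector. Neither TAPBP nor PSMB10 passed 2-fold. Over the 13 measured MHC class I and peptide-loading genes the median difference of YAP-W1W2 from vector was −0.0071 (log2).

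Among the other membrane and secreted members, the viral entry inhibitor IFITM1 read 324.9 in YAP-WT cells, 178.6 in YAP-S94A cells and 275.6 in YAP-W1W2 cells, against 183.4 in vector, with YAP-WT and YAP-W1W2 the high pair and 1.77-fold higher in YAP-WT. Another probe set, shared by IFITM1 and IFITM2, was not used. The secreted glycoprotein LGALS3BP, the brightest member, read 2812, 2555 and 2182 for YAP-WT, YAP-S94A and YAP-W1W2, against 3413 in vector. IFI6, a mitochondrial and endoplasmic reticulum protein, stayed between 210.4 and 273.1. MX2, a GTPase that restricts HIV, read 162.0, 151.7 and 128.9, against 91.3 in vector, and each value was low.

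ISG20, an exonuclease that degrades RNA, was high in YAP-S94A alone, at 191.1 in YAP-WT cells, 548.0 in YAP-S94A cells and 166.2 in YAP-W1W2 cells, against 213.6 in vector. It was 2.57-fold higher with YAP-S94A than in vector, and higher by 0.68 (log2) with the mean over its probe sets, the other of which lay under the floor on every array. PARP9 and its partner ligase DTX3L, which share a promoter region on chromosome 3, stayed within 2-fold of vector. PARP9 ranged from 430.6 to 653.8 and DTX3L from 1093 to 1492, both highest in YAP-S94A by their brightest probe sets. The other measured probe set of PARP9 read 219.7, 377.7 and 402.0 for YAP-WT, YAP-S94A and YAP-W1W2, against 223.4 in vector, and so was highest in YAP-W1W2. SAMD9L, beside SAMD9 on chromosome 7 and related to it in sequence, ranged from 273.6 to 378.8 and did not share the low YAP-WT value of SAMD9. A dimmer SAMD9L probe set did read lower than vector in each form, by log2 differences of −1.09 in YAP-WT cells, −0.68 in YAP-S94A cells and −0.96 in YAP-W1W2 cells. RSAD2, or viperin, which makes a chain-terminating nucleotide, read 104.2, 105.8 and 138.1 for YAP-WT, YAP-S94A and YAP-W1W2, against 188.7 in vector. Its other measured probe set differed from vector by −1.16 (log2) in YAP-WT. IFI35, which takes part in innate signalling, ranged from 299.2 to 461.6, and EPSTI1, an interferon-induced epithelial and stromal gene, from 128.5 to 170.1.

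Setting YAP-S94A against YAP-WT leaves the vector array out but uses the YAP-WT array again. An aberrant YAP-WT value would appear both here and in YAP-WT against vector. Here 7 of 35 members (20.0%) stood at least 2-fold higher in YAP-S94A and 1 lower, while 5.06% of all measured genes were higher and 6.27% lower. The median log2 difference was 0.11, against 0.01 for all genes. OASL was 4.47-fold higher in YAP-S94A, IFI27 3.98-fold, BST2 3.15-fold, ISG20 2.87-fold, SAMD9 2.51-fold, OAS1 at least 2.43-fold and HERC6 2.05-fold. Of these, OASL, IFI27, BST2, SAMD9 and OAS1 were also counted above as lower in YAP-WT than in vector. The 1 lower gene was IFI44L, at 3.77-fold, and its neighbour IFI44 was 1.996-fold lower, just under the threshold. With the mean over a gene's probe sets the count of higher members was 4 and the median 0.37, and ISG20 (0.76, log2), HERC6 (0.73) and OAS1 (0.64) were under 2-fold. For ISG20 and OAS1 the other probe set lay under the floor on every array and so entered this mean as 0.00. The OASL difference was 0.29 (log2) with only those probe sets whose names lack _s_at and _x_at. That setting cannot inform on OAS1, since it keeps only the probe set under the floor, which fixes the difference at 0.00.

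YAP-W1W2 differed from YAP-WT by at least 2-fold in a share of members near that of all measured genes. In this comparison 2 (5.7%) were higher and 2 (5.7%) lower, while 3.91% of all measured genes were higher and 5.59% lower. IFIT2 was 2.29-fold and OASL 2.03-fold higher in YAP-W1W2, and IFI44 was 2.18-fold and IFI44L 2.05-fold lower. With median centring OASL came to 0.98 (log2), and with the mean over probe sets IFI44 came to −0.50, its other probe set being dim. IFI27, BST2 and SAMD9 lay at 1.42-fold, 1.18-fold and 1.07-fold above their YAP-WT values. Between the mutants, 1 member was higher in YAP-W1W2 than in YAP-S94A and 5 were lower, with 4.98% of all genes higher and 4.45% lower. The higher gene was IFIT2, at 3.00-fold. The lower genes were ISG20 (3.30-fold), IFI27 (2.81-fold), BST2 (2.67-fold), SAMD9 (2.35-fold) and OASL (2.20-fold). With the mean over probe sets SAMD9 (−0.95, log2) and ISG20 (−0.86) were under 2-fold between the mutants, but the other ISG20 probe set lay under the floor on every array. The dimmer OASL probe set was higher in YAP-W1W2 by 0.91 (log2), so the direction of OASL between the mutants is not settled.

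**Figure D4:**
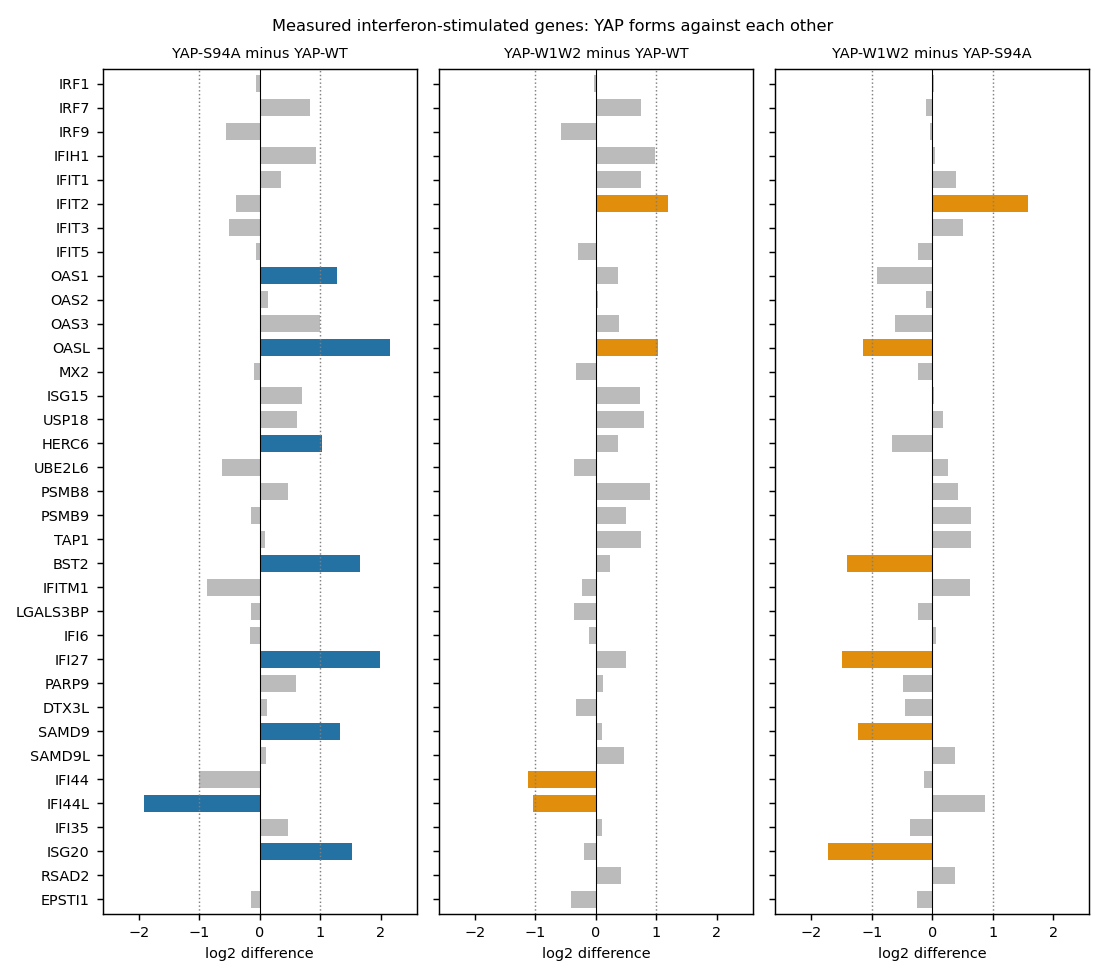
Log2 difference between YAP forms of the 35 measured interferon-stimulated genes (rows), for YAP-S94A minus YAP-WT, YAP-W1W2 minus YAP-WT and YAP-W1W2 minus YAP-S94A (panels), each bar a difference between 2 arrays; coloured bars pass 2-fold (dotted lines). OASL, IFI27, BST2, ISG20 and SAMD9 are to the right in the YAP-S94A minus YAP-WT panel and to the left in the YAP-W1W2 minus YAP-S94A panel.

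The spread of the members in each comparison is plotted over that of all measured genes. In YAP-WT against vector the quartiles of the members were −0.82 and 0.18 (log2), and those of all genes −0.22 and 0.50. In YAP-S94A against YAP-WT they were −0.15 and 0.88 for the members and −0.34 and 0.35 for all genes.

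**Figure D5:**
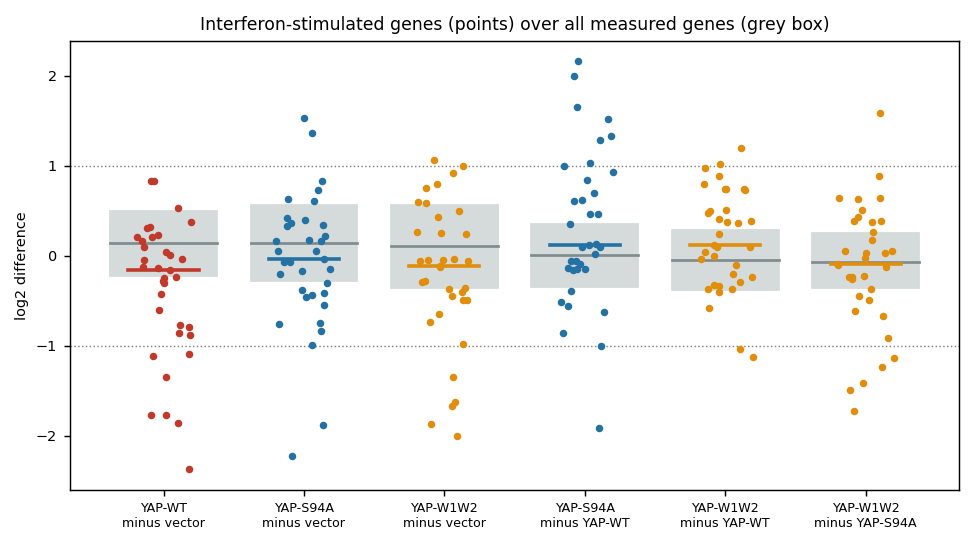
Log2 differences of the 35 measured interferon-stimulated genes (points, spread sideways at random) in the 6 comparisons, with their median as a coloured line, over the quartiles of all 12759 measured genes (grey box) and its median (grey line); dotted lines mark 2-fold. The members' median lies below that of all genes in the 3 comparisons with vector and above it in the comparisons of each mutant with YAP-WT.

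The upstream and parallel genes of the pathway were read from lists chosen for their roles. Their counts are to be read against the shares of all measured genes given above, 9.11% higher and 4.95% lower in YAP-WT, 10.3% and 6.53% in YAP-S94A, and 11.4% and 8.4% in YAP-W1W2, and each list is small. Of 21 interferon genes, 18 had a probe set and only 3 were measured. IFNL1, a type III interferon, read 188.0 in YAP-WT cells, 125.9 in YAP-S94A cells and 47.7 in YAP-W1W2 cells, against 335.9 in vector, so all forms were below vector and YAP-W1W2 was under the floor. IFNA17 read 156.5, 259.4 and 251.2 for YAP-WT, YAP-S94A and YAP-W1W2, against 124.1 in vector, and IFNA genes are so alike that its probe set may read others. Of 9 receptor and JAK genes, all measured, 1 was at least 2-fold lower in YAP-WT cells, 2 in YAP-S94A cells and 2 in YAP-W1W2 cells, and 0 were higher. IFNGR1, the ligand-binding chain of the interferon gamma receptor, read 4888 in YAP-WT cells, 4518 in YAP-S94A cells and 4040 in YAP-W1W2 cells, against 11361 in vector, and all 3 of its probe sets were over 2-fold lower in every form. JAK2, which signals from that receptor, read 322.6, 165.4 and 160.2, against 341.6 in vector.

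Among 11 measured genes of nucleic acid sensing, 0 were higher and 1 lower in YAP-WT, 2 higher and 1 lower in YAP-S94A, and 0 higher and 2 lower in YAP-W1W2. Over all measured genes 10.3% were higher and 6.53% lower in YAP-S94A, and a list of 11 genes is too small to compare closely with these shares. IFI16, a nuclear DNA sensor, read 1507 in YAP-WT cells, 3609 in YAP-S94A cells and 923.0 in YAP-W1W2 cells, against 5205 in vector, which is the array order seen for IFI27 and SAMD9 but for the lowest place. All 3 probe sets of IFI16 ran this way, from −1.79 to −1.21 (log2) in YAP-WT, −0.53 to −0.27 in YAP-S94A and −3.24 to −2.50 in YAP-W1W2. CGAS, the cytosolic DNA sensor, was 2.93-fold higher in YAP-S94A, and its measured probe sets differed in direction in the other forms. IRF3, the factor that first switches on interferon, was 2.03-fold higher in YAP-S94A, and the RNA sensor TLR3 was 2.03-fold lower in YAP-S94A and 2.50-fold lower in YAP-W1W2.

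Of 9 measured negative regulators, 2 were higher and 1 lower in YAP-WT, 0 passed 2-fold in YAP-S94A, and 1 was lower in YAP-W1W2. The lower gene was SOCS1, a JAK inhibitor, at 75.9 in YAP-WT cells, 159.6 in YAP-S94A cells and 49.2 in YAP-W1W2 cells, against 314.2 in vector, and another of its measured probe sets was higher in every form. The phosphatase PTPN1 was 2.16-fold and the STAT5-induced inhibitor CISH 2.03-fold higher in YAP-WT, and the probe sets of CISH differed in direction in YAP-W1W2. Of 13 measured MHC class I and peptide-loading genes, 1 was higher and 1 lower in YAP-WT, 0 passed 2-fold in YAP-S94A, and 2 were higher in YAP-W1W2. These 2 were TAP2 and the chaperone CALR, at 2.21-fold. The proteasome activator PSME1 was 2.32-fold lower in YAP-WT.

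Of 14 measured interferon gamma targets, 1 was higher and 2 lower in YAP-WT, 4 higher and 1 lower in YAP-S94A, and 5 higher and 3 lower in YAP-W1W2, where 11.4% of all measured genes were higher and 8.4% lower. SOCS1 is on this list too and is counted in both. The guanylate-binding genes split: GBP2 read 188.5 in YAP-WT cells, 242.2 in YAP-S94A cells and 166.4 in YAP-W1W2 cells, against 690.1 in vector, and GBP3 read 931.4, 1307 and 3028 in the same order, against 616.0 in vector. HLA-DRB1, an MHC class II chain, was 3.10-fold higher in YAP-WT cells, 2.05-fold in YAP-S94A cells and 2.84-fold in YAP-W1W2 cells, from a vector value of 88.4 near the floor. A further list of 46 interferon-stimulated genes outside the 39 had 34 measured members. In it 3 were higher and 0 lower in YAP-WT, 3 higher and 1 lower in YAP-S94A, and 4 higher and 1 lower in YAP-W1W2, with medians of 0.08, 0.19 and −0.19 (log2). The counts of higher genes were near the shares of all measured genes, 9.11%, 10.3% and 11.4%. LY6E, which blocks coronavirus entry, read 2468 in YAP-WT cells, 2003 in YAP-S94A cells and 2227 in YAP-W1W2 cells, against 888.7 in vector. HELZ2 was 4.39-fold, 3.03-fold and 2.06-fold higher for YAP-WT, YAP-S94A and YAP-W1W2 than in vector. Its vector value of 84.6 was near the floor, and only 1 of its 4 probe sets was measured. TRIM22, an antiviral ligase, was 2.55-fold lower in YAP-S94A, and SHFL, a ribosomal frameshift inhibitor, was 3.06-fold lower in YAP-W1W2 by its brightest probe set, with another in the opposite direction.

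Markers of other cell types were read beside these results. Of 6 leukocyte markers 5 had a probe set and 2 were measured, and their summed intensity was 572.9 in YAP-WT cells, 518.1 in YAP-S94A cells and 433.0 in YAP-W1W2 cells, against 639.0 in vector. PTPRC, which defines leukocytes, was under the floor in YAP-S94A, YAP-W1W2 and vector and read 74.6 in YAP-WT. CD14 read 61.7 in YAP-WT cells, 143.9 in YAP-S94A cells and 19.3 in YAP-W1W2 cells, against 311.9 in vector, the low and high pairs of IFI27, BST2 and SAMD9. The other measured marker, ITGAM, read 127.1, 284.5 and 209.4, against 185.5 in vector, and did not share them, nor did CD3E, at 256.1, 52.7 and 49.9, against 20.3 in vector. The part of these markers in the results was not tested. The 3 endothelial markers CDH5, VWF and TEK were under the floor on all arrays, and PECAM1 read 472.6 to 680.9. Of 5 fibroblast markers 2 were measured, COL1A1 and COL1A2, with a summed intensity over the 5 of 1408 in YAP-WT cells, 867.0 in YAP-S94A cells and 1149 in YAP-W1W2 cells, against 706.1 in vector. COL1A1 gave 1105 of this sum in YAP-WT, and another of its measured probe sets went the other way, at −2.29 (log2) in YAP-WT and −3.20 in YAP-W1W2, where the brightest gave 1.29 and 0.67.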

How the data were processed

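Trizol RNA of 4 cultures was made into biotinylated cRNA and hybridised to Affymetrix arrays, per the labels' protocols. The authors deposited linear array intensities, and the submitters' processing notes name GCOS, with no version or scaling target given in the sources used here. The table held 54675 probe sets, 62 of them controls. Platform annotation gave 41097 probe sets 1 symbol, 1801 several and 11777 none, and 0 symbols needed updating in RefSeq (GRCh38.p14).

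The 2% trimmed means of the arrays, controls left out, ran from 458.4 to 503.3, a ratio of 1.098 and within the 10% allowed, so values were used as deposited. Floor, log2, brightest probe set and filter on dim genes are as stated above. Only probe sets with 1 symbol named genes. No test was possible with 1 array per group, and the number of arrays limits the precision. No detection calls were used. The calculation was tested on simulated data. Python 3.11.15, pandas 2.3.3 and NumPy 2.4.6 were used.

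The members and lists were chosen with earlier results of these data known. All members could be named, and of each other list up to 4 genes past 2-fold against vector. TAPBP and PSMB10 did not pass 2-fold and were named outside this rule, beside TAP2. CCN2, YAP1 and markers were named as checks. Alternatives were median centring, a floor at the 20th percentile, the mean over probe sets, probe sets without the _s_at or _x_at suffix, and no filter on dim genes.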

Additional observations from a re-analysis of the deposited data

Results flagged for a closer look

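IFIT2 was marked because the YAP forms lay on opposite sides of vector, each by at least 0.5 on the log2 scale. It differed from vector by −0.60 in YAP-WT cells, −0.99 in YAP-S94A cells and 0.59 in YAP-W1W2 cells. The difference between the forms was not tested, since each has 1 array. Its second probe set lay on the same sides of vector.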

How the results depend on the processing

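With 1 array per group all differences are weakly held, those under about 2-fold or with a value near the floor most of all. The 2-fold cut was a fixed size and was not drawn from replicates. No paired analysis was possible because each group has 1 array and the results come from no test. With the mean over probe sets, 1 member was at least 2-fold higher and 4 lower with YAP-S94A than in vector; 4 were higher in YAP-S94A than in YAP-WT (median 0.37), 1 was lower in YAP-W1W2 than in YAP-WT, and 2 were lower in YAP-W1W2 than in YAP-S94A. With probe sets without the _s_at or _x_at suffix, which leave 26 measured members and take out TAP1, 1 was lower with YAP-S94A than with vector, 0 were higher in YAP-W1W2 than in vector, and 1 was lower in YAP-W1W2 than in YAP-WT. The same setting turned the direction of IFI44 in YAP-W1W2 against YAP-WT (0.12, log2) and of OASL in YAP-W1W2 against YAP-S94A (0.91). The IFI44 value came from a dim probe set, at 79.5 in YAP-W1W2 and under the floor in YAP-WT (20.1), so it does not give a direction. With median centring, 2 were lower in YAP-S94A than in YAP-WT and 1 higher in YAP-W1W2 than in YAP-WT. All other counts stayed within 1.5 times and medians within 0.25 under the 5 alternatives. The members' median changed sign to 0.05 without the filter on dim genes for YAP-S94A against vector, and for YAP-W1W2 against YAP-S94A to 0.04 without the suffixes and 0.00091 with the mean over probe sets. Of the 35 differences past 2-fold, 34 stayed past it with median centring, 35 with the lower floor, 25 with the mean over probe sets and 26 of 34 without the suffixes. These tallies kept genes that a setting left dim, such as OAS1 and IFI44 without the suffixes. Over all genes, the mean over probe sets gave 745 higher and 381 lower in YAP-WT than in vector, against 1162 and 631 with the brightest probe set. In the same terms it gave 887 and 536 against 1312 and 833 for YAP-S94A, 931 and 725 against 1460 and 1072 for YAP-W1W2, 398 and 497 against 646 and 800 for YAP-S94A over YAP-WT, 287 and 419 against 499 and 713 for YAP-W1W2 over YAP-WT, and 388 and 368 against 635 and 568 for YAP-W1W2 over YAP-S94A. The mean took in dim probe sets, and a probe set under the floor on both arrays adds no difference, as for OAS1 and ISG20. How much of the changes over all genes came from this was not tested.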
